A study of Mus musculus with 6 samples.

Results

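Interferon-stimulated genes are the effectors and transcription factors that a cell switches on when interferon reaches it, and their RNA was measured here in the lens of mice carrying a crystallin mutation. The set was a list of 42 genes, with class I antigen presentation left out, and a gene was read through the array probes whose RefSeq accession belongs to it. Where a gene had several probes, the probe with the highest mean signal stood for it. Of the 42 genes, 40 had a probe and 32 passed the filter on dim probes, among 12785 genes tested in all. The knock-in group was lens RNA of mice at 3 months of age with the βB2-crystallin W151C allele, made by CRISPR/Cas9, in which codon 151 encodes cysteine in place of tryptophan. The control group was lens RNA of wild type mice of the same age, 3 months. Each group had 3 arrays, and the third knock-in array carries the replicate number 4 in its label. The labels do not give zygosity, strain, the number of founder lines, or how many lenses or animals went into an array, so each p-value reflects how far the arrays of a group spread, and that spread may be technical.

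Type I and type III interferons bind their receptors and activate receptor-bound Janus kinases. Signalling from these assembles the complex ISGF3, with IRF9 as its DNA-binding subunit, which binds the interferon-stimulated response element (ISRE) in the promoters of its target genes. Interferon gamma acts mainly through another promoter element, the gamma-activated site (GAS). The induced proteins sense foreign RNA, degrade it, block its translation or stop virus particles at membranes. The lens is an avascular tissue of epithelial and fibre cells enclosed in a capsule.

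The promoters of the set were read for both elements, because the genes are grouped by how they are induced and many moved together on these arrays. Windows reaching from 250 bases before to 50 bases after the transcription start were taken from RefSeq (GRCm38.p6), and 33 of the 42 genes had one. The ISRE core was searched on both strands as GAAA, any 2 bases, GAAA, and overlapping matches were counted. It was present in 17 of the 33 genes, or 51.5%, against 3.99% of all 27025 genes with a window and 3.6% of the 10233 genes that had a window and were tested on the arrays. The GAS, TTCNNNGAA, was present in 11 of the 33 genes, or 33.3%, against 9.55% of all genes with a window. Of the 26 ISRE cores in the set, 17 lay within 150 bases before the start, and 8 genes held more than 1 core. Of the 12 GAS matches, 2 overlapped an ISRE core. By the calls described below, a core was present in 11 of the 18 members that rose and had a window, in 2 of the 7 that were tested and not called, and in 4 of the 7 that were not tested. A GAS was present in 4 of those 18, in 4 of those 7 not called and in 2 of the 7 not tested. The stretches that hold the cores of 8 genes are shown because 7 of these genes rose on the arrays and 1, Isg15, did not pass the test. Each is written along the gene's own strand, with the cores in capitals; a core on the opposite strand reads TTTC, any 2 bases, TTTC.
Bst2: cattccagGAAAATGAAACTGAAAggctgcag
Gbp3: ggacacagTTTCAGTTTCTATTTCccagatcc
Ifit1: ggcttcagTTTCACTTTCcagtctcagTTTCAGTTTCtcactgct
Ifitm3: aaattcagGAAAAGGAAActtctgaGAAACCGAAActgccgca
Isg15: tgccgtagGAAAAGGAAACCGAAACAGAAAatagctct
Oas1a: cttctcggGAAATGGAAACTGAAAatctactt
Trim21: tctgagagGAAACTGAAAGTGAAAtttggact
Gbp2: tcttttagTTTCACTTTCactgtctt
In GRCm38.p6 these lie at chr8:71537579-71537610 (minus strand, Bst2), chr3:142559991-142560022 (plus strand, Gbp3), chr19:34640777-34640821 (plus strand, Ifit1) and chr7:141010708-141010750 (minus strand, Ifitm3). The others lie at chr4:156200867-156200904 (minus strand, Isg15), chr5:120907522-120907553 (minus strand, Oas1a), chr7:102565446-102565477 (minus strand, Trim21) and chr3:142620596-142620621 (plus strand, Gbp2). The 3 cores of Isg15 overlap one another, at -78 to -69, -72 to -63 and -66 to -57 from the start. The cores of Bst2, Gbp3, Oas1a and Trim21 also overlap in pairs, while those of Ifit1 and Ifitm3 are apart.

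The window of Ifit2, the only member called lower on the arrays, is shown because it differs from those of its neighbours Ifit1 and Ifit3. Neither of its 2 RefSeq windows held an ISRE core, and the window at chr19:34550444-34550743 (plus strand) held 1 GAS, at -241 to -233.
Ifit2: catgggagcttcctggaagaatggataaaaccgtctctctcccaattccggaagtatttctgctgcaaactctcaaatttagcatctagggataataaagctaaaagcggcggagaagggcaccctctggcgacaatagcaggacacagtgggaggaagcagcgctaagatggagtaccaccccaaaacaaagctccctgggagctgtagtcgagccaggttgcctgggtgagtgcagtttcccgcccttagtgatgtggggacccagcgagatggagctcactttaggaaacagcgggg
The lack of an ISRE core was not particular to Ifit2, since the windows of Ifitm1, Irf9, Isg20, Oasl1, Oasl2, Trim25 and Xaf1, which rose, held none either. A match is a description of the letters only, and the absence of one says only that these letters are not in the window.

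**Figure D1:**
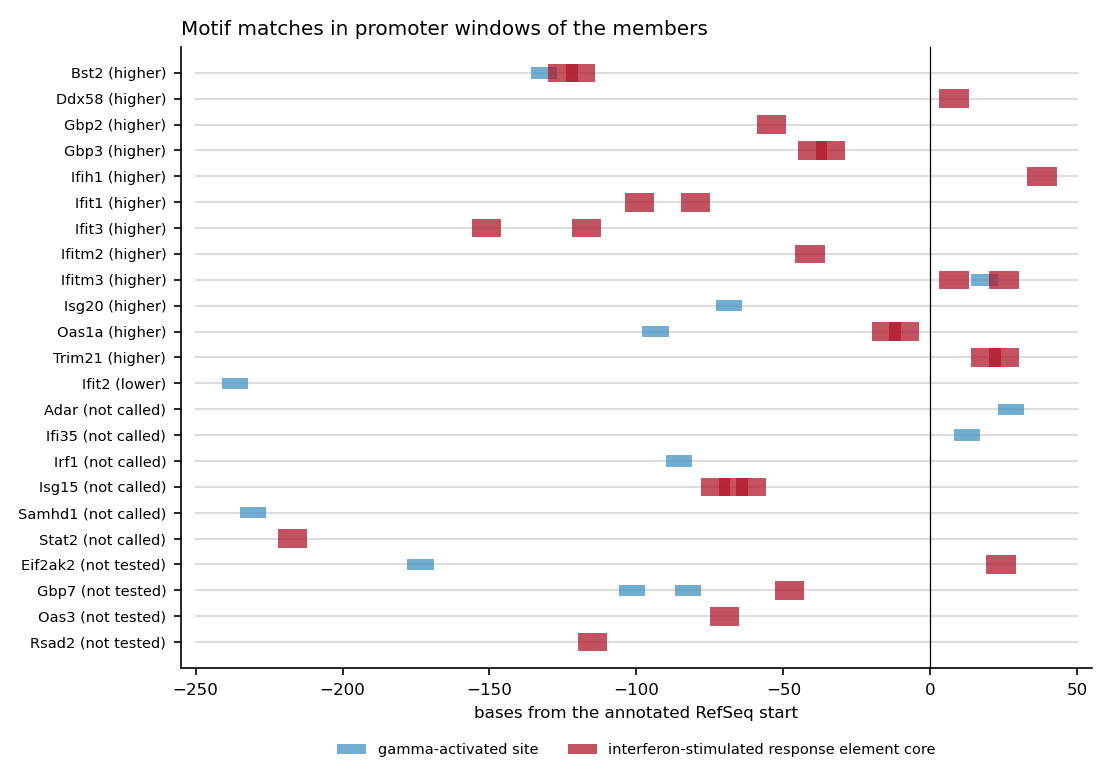
Positions of ISRE cores and GAS matches in the promoter windows of the interferon-stimulated genes, in bases from the transcription start (RefSeq, GRCm38.p6). Of 26 ISRE cores, 19 lie before the start and 17 of those within 150 bases of it.

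The arrays were single-colour Agilent arrays hybridised with Cy3-labelled cRNA. Levels are log2 processed signal minus the array's 75th percentile, called the scaled log2 signal, so that 0 is a probe at that percentile. They compare 1 probe between arrays and not 1 gene with another. The share of spots well above background was 45.5% to 58.4% per array, no spot was saturated, and the small number of arrays limits the precision. The 75th percentile of the signal was 167 to 201 in the knock-in group, and in wild type it was 142 on array 1, 120 on array 2 and 698 on array 3. Slides were inferred: arrays with the same scan time in their file headers were taken as 1 slide. By this rule all knock-in samples shared 1 slide and wild type arrays 1 and 2 shared a different one. Wild type array 3, scanned on another day, had a slide of its own. Each slide so inferred carried a single genotype, and for that reason the effects of slide and genotype cannot be told apart. The labelled tissue was checked by its markers: all 8 lens fibre markers with a probe, crystallins among them, were well above background on every array.

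The interferon-stimulated genes were mostly higher in knock-in lenses. At an adjusted p under 0.05 (limma, Benjamini-Hochberg over all genes tested), 23 of the 32 tested members rose, or 71.9%, while 13.3% of all genes tested rose. A single member fell, Ifit2, or 3.12%, while 12.6% of all genes fell. The median difference of the members was 1.16 on the log2 scale, against -0.04 for all genes, and 18 members rose by at least 2-fold in the fit, against 6.59% of all genes. Of those 18, 6 had a wild type level mostly at background, as described below, and 12 did not. All 3 knock-in arrays lay above all 3 wild type arrays for 25 members, or 78.1%, against 22.7% of all genes, and below them for 1 member, against 23.1% of all genes. With 3 arrays against 3, an exact permutation test of 1 gene cannot go below p = 0.1. In tissue RNA, more cells of a type and more RNA per cell cannot be told apart.

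The filter kept a probe that was well above background on all arrays of 1 group, and 6 members (Ifih1, Oas1a, Oasl1, Gbp3, Ifitm1 and Rtp4) passed only through the knock-in group, where they were high; their calls support nothing about the set. No wild type array was above background for 4 of them, and 1 was for Oasl1 and for Rtp4. Dtx3l passed only through wild type. Among the 25 members well above background on all 6 arrays, 17 rose, 1 fell, and the median difference was 0.95; of the 10654 genes so measured, 13.7% rose and 10.6% fell. Against the wild type mean, the median member stood at 1.13, 1.35 and 1.26 on knock-in arrays 1, 2 and 4 and at -0.06, 0.02 and 0.02 on wild type arrays 1, 2 and 3. That median was taken over all 32 tested members, the 6 that passed only through knock-in included. By it, the 3 knock-in arrays stood at similar levels, and the members measured on all 6 arrays were not read apart. With slide as a random block, 11 members rose and none fell, all 11 among the 23, and the 13 lost calls had adjusted p of 0.0507 to 0.313 (limma). The 11 include Oas1a, Oasl1, Gbp3 and Ifitm1, which passed the filter only through knock-in. The median difference of 1.18 in that fit also includes the 6 members that did so. In that fit 2.82% of all genes rose and 2.01% fell. Within the scan day that holds both genotypes, 25 members rose and Ifit2 fell, against 19.5% of all genes higher and 23.9% lower. A normexp background correction left 9 of the 24 calls, with lost calls at adjusted p of 0.0674 to 0.378; the 15 lost were Bst2, Ddx58, Gbp2, Gbp3, Ifih1, Ifit2, Ifit3, Ifitm1, Ifitm2, Oas1a, Oasl1, Parp14, Parp9, Rtp4 and Xaf1. Without the filter on dim probes, the calls for Ddx58, Gbp2, Ifit2, Ifit3, Ifitm2, Parp9 and Trim25 were lost (adjusted p = 0.0571 to 0.11), and with each array centred on its median those for Ddx58, Ifitm2 and Parp9 (0.0591 to 0.163), all with the direction kept.

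**Figure D2:**
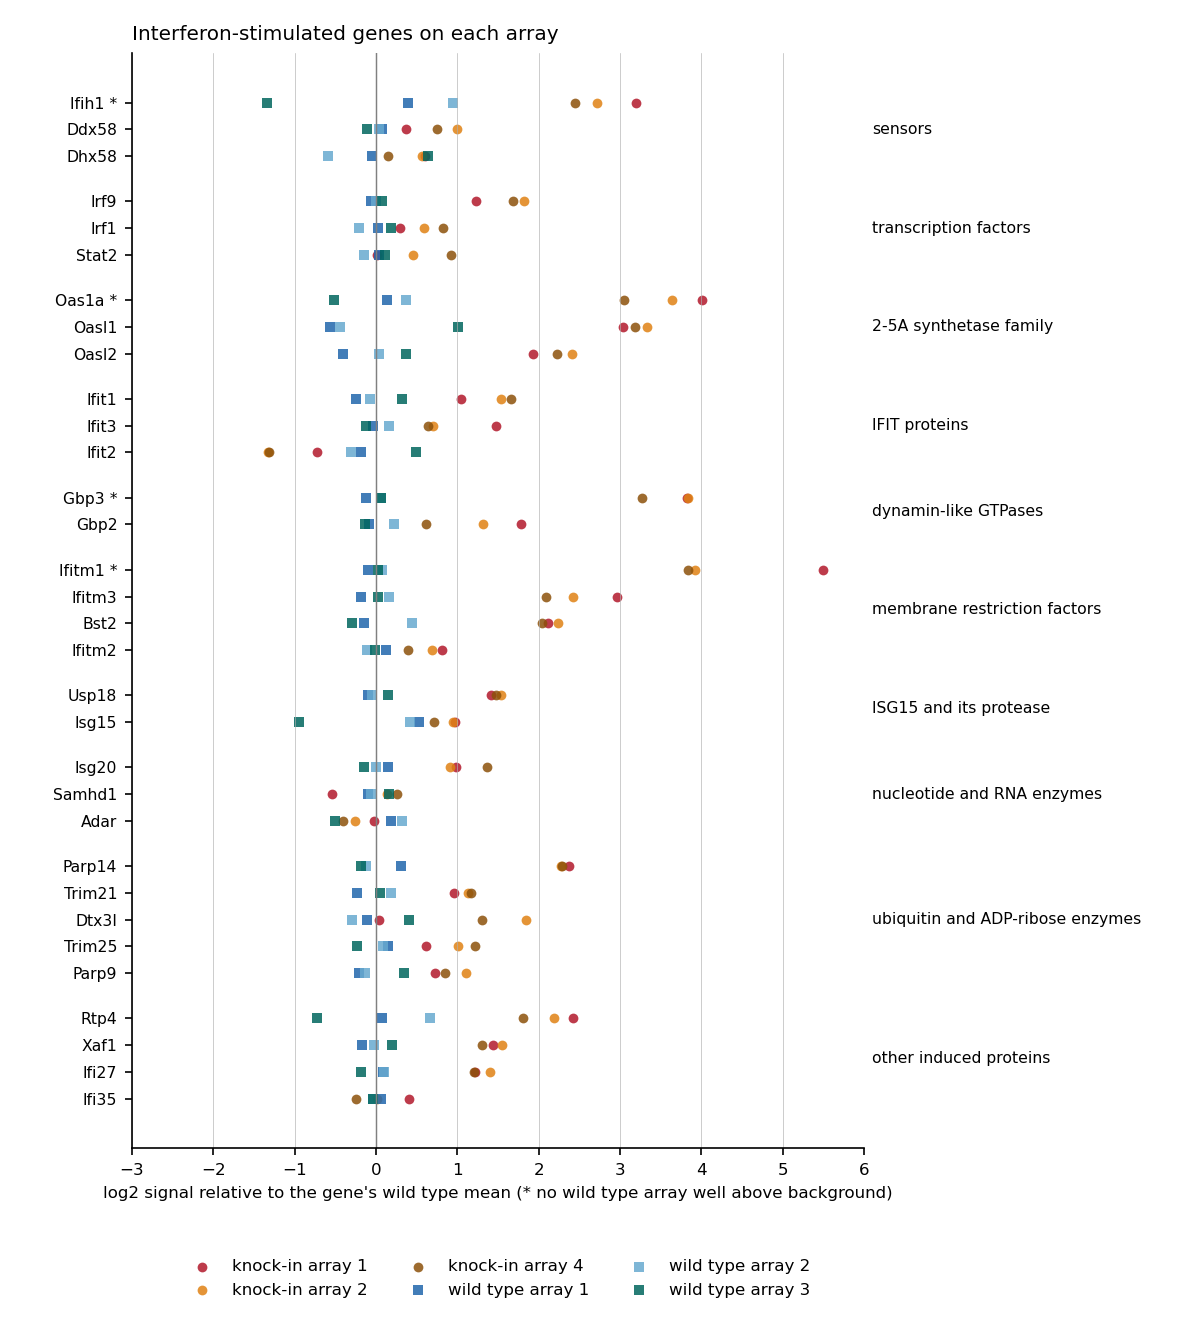
Scaled log2 signal of the 32 tested members on each of the 6 arrays, relative to the gene's wild type mean and grouped by role; an asterisk marks the 4 genes with no wild type array well above background. Circles are knock-in arrays and squares wild type arrays; the circles lie right of all squares for 25 genes and left of them for Ifit2.

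**Figure D3:**
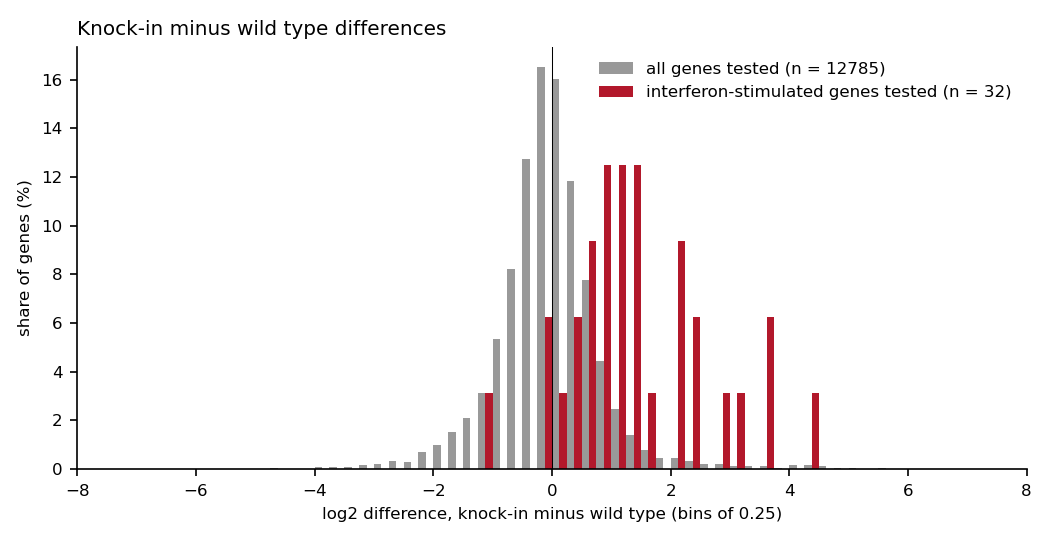
Distribution of the log2 difference, knock-in minus wild type, over all 12785 genes tested and over the 32 members. All genes centre near -0.04, and the members have their median at 1.16 and reach from -1.12 to 4.42.

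Of the cytosolic RNA sensors, Ifih1 and Ddx58 rose and Dhx58 did not pass the test. Values are given below for knock-in arrays 1, 2 and 4 and then for wild type arrays 1, 2 and 3. Ifih1, which encodes MDA5, a sensor of long double-stranded RNA, read -2.05, -2.53 and -2.79 in knock-in and -4.85, -4.30 and -6.58 in wild type. The groups were separate, and no wild type array was well above background for this probe. A difference for such a gene, or for one with a single wild type array above background, is given as a lower bound: the wild type level on each array was taken as the higher of the probe's own signal and the dimmest signal that still counted as well above background there. Ifih1 was at least 3.02-fold higher by that rule (fitted adjusted p = 0.0127, limma; 0.0703 with the slide block and 0.0573 without knock-in array 1). Ddx58, which encodes RIG-I, the sensor of short RNA with a 5′ triphosphate, averaged -1.27 ± 0.32 in knock-in and -1.97 ± 0.10 in wild type (SD, n = 3 each; adjusted p = 0.0402, limma). That call was lost with the slide block (adjusted p = 0.313) and without knock-in array 2 or 4 or wild type array 1 or 2 (0.102 to 0.153). Dhx58, which encodes LGP2, a regulator of both sensors, averaged -2.41 ± 0.25 and -2.85 ± 0.61 (SD, n = 3 each; adjusted p = 0.347, limma), with overlapping arrays; without wild type array 3 the adjusted p was 0.0385.

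Among the transcription factors, Irf9 rose while Irf1 and Stat2 did not pass the test. Irf9, the DNA-binding subunit of ISGF3, read 1.32, 1.91 and 1.78 in knock-in and 0.03, 0.09 and 0.16 in wild type. Every knock-in array stood more than 1 log2 unit above every wild type array. The difference was 1.58 ± 0.19 (SE; adjusted p = 0.00198, limma; 0.0507 with the slide block). Irf1, a factor that interferon gamma induces early, read 0.34, 0.63 and 0.87 against 0.07, -0.16 and 0.23. Its groups were separate by a small gap between knock-in array 1 and wild type array 3, and its difference of 0.57 fell short of the threshold (adjusted p = 0.074, limma; 0.035 without wild type array 3). Stat2, another subunit of ISGF3, averaged 0.49 ± 0.45 in knock-in and 0.03 ± 0.13 in wild type (SD, n = 3 each; adjusted p = 0.209, limma). Its knock-in arrays spread over 0.04 to 0.95, and the lowest of them lay within the wild type range.

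The 3 tested members of the 2′-5′ oligoadenylate synthetase family were called higher, as were 13.3% of all genes. They were also called with the slide block, as were 2.82% of all genes. With normexp, Oas1a and Oasl1 lost their calls (adjusted p = 0.187 and 0.199, limma). Oas1a and Oasl1 passed the filter only through the knock-in group, so Oasl2 alone was measured on all arrays of both genotypes, and Oas2 and Oas3 failed the filter. Oas1a, a synthetase whose product activates RNase L, read -2.01, -2.39 and -2.97 in knock-in and -5.88, -5.65 and -6.53 in wild type. Its probe was well above background on no wild type array, and Oas1a stood at least 3.02-fold above its wild type level (fitted adjusted p = 0.000617, limma). Oasl1, a synthetase-like protein that lacks synthetase activity, read -2.30, -2.01 and -2.15 against -5.91, -5.77 and -4.33, with 1 wild type array above background. By the rule given for Ifih1, Oasl1 was at least 3.63-fold higher (fitted adjusted p = 0.00245, limma). Oasl2, the related protein that makes 2′-5′ oligoadenylates, read -0.77, -0.29 and -0.48 against -3.11, -2.67 and -2.33. The knock-in arrays of Oasl2 clustered closely, and the difference was 2.19 ± 0.24 (SE; adjusted p = 0.00134, limma). The Oas genes of the mouse are a cluster of close copies, and how far their probes bind related transcripts was not tested.

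The 3 IFIT genes, whose proteins bind foreign RNA and block its translation, did not move in 1 direction. Ifit1, which recognises RNA caps without 2′-O methylation, read -0.48, 0.03 and 0.14 in knock-in and -1.76, -1.59 and -1.20 in wild type. The groups were separate, and the difference was 1.41 ± 0.23 (SE; adjusted p = 0.00643, limma; 0.104 with the slide block). Ifit3, which stabilises IFIT1 on RNA, averaged 0.01 ± 0.47 against -0.93 ± 0.15 (SD, n = 3 each; adjusted p = 0.0355, limma). Knock-in array 1 was its highest at 0.54, and the other two were at -0.23 and -0.29, still above every wild type array. Its call was lost with the slide block (adjusted p = 0.308) and without knock-in array 2 or wild type array 1 or 2 (0.0677 to 0.108). Ifit2, which binds AU-rich RNA, read -2.08, -2.68 and -2.67 in knock-in and -1.54, -1.66 and -0.85 in wild type. All knock-in arrays were below all wild type arrays, and the probe was well above background on all 6. The difference was -1.12 ± 0.28 (SE; adjusted p = 0.0261, limma), opposite to its neighbours on chromosome 19. The call for Ifit2 was lost with the slide block (adjusted p = 0.174) and without knock-in array 2 or 4 or wild type array 1 (0.0581 to 0.102), with a negative difference each time.

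Both tested guanylate-binding proteins, interferon-induced GTPases that attack the membranes around intracellular microbes, rose. Gbp3 read -1.88, -1.86 and -2.43 in knock-in and -5.82, -5.64 and -5.64 in wild type. No wild type array was well above background, and Gbp3 was at least 3.98-fold higher (fitted adjusted p = 0.000133, limma; 0.00309 with the slide block). Gbp2 read -0.94, -1.41 and -2.11 against -2.81, -2.50 and -2.86. The lowest knock-in array of Gbp2, array 4, stood close to the wild type arrays, and the difference was 1.23 ± 0.30 (SE; adjusted p = 0.0255, limma). It was lost with the slide block (adjusted p = 0.269) and without knock-in array 1 or 2 or wild type array 1 (0.0599 to 0.0917).

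All 4 membrane restriction factors rose. Ifitm1, which blocks fusion of virus with the plasma membrane, read -0.26, -1.83 and -1.92 in knock-in and -5.86, -5.68 and -5.74 in wild type. Knock-in array 1 was the highest by over 1 log2 unit, and all 3 knock-in arrays stood far above the wild type arrays, none of which was well above background. Ifitm1 was at least 6.54-fold higher (fitted adjusted p = 0.000816, limma; 0.0265 with the slide block). Ifitm3, which blocks fusion in endosomes, read 0.60, 0.06 and -0.27 against -2.55, -2.21 and -2.34. It was well above background on all 6 arrays, and the difference was 2.49 ± 0.25 (SE; adjusted p = 0.000858, limma). Bst2, or tetherin, which holds budding virus at the cell surface, read -0.64, -0.52 and -0.72 against -2.91, -2.32 and -3.06. The knock-in arrays lay close together, and the difference was 2.14 ± 0.22 (SE; adjusted p = 0.00107, limma). Ifitm2, the paralogue of Ifitm3, averaged 1.09 ± 0.22 against 0.47 ± 0.11 (SD, n = 3 each; adjusted p = 0.0375, limma). It was lost with the slide block (adjusted p = 0.312) and without knock-in array 1 or 2 or wild type array 1 or 2 (0.0834 to 0.141). The Ifitm genes are close copies, and how far their probes bind related transcripts was not tested.

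The ubiquitin-like modifier and the protease that removes it gave unlike results. Usp18, the ISG15 protease and an inhibitor of the interferon receptor, read -0.99, -0.87 and -0.93 in knock-in and -2.50, -2.45 and -2.26 in wild type. Arrays within each group agreed closely, and the difference was 1.47 ± 0.15 (SE; adjusted p = 0.000932, limma; 0.02 with the slide block). Isg15, whose promoter held 3 ISRE cores, read 0.33, 0.31 and 0.08 against -0.11, -0.23 and -1.59. The groups were separate, but wild type array 3 lay far below the other two wild type arrays. The difference of 0.88 ± 0.39 (SE) did not pass the test (adjusted p = 0.139, limma), and within the scan day that holds both genotypes it was 0.41 (adjusted p = 0.0621).

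Of the enzymes that act on nucleotides and RNA, Isg20 alone rose among the 3 tested. Isg20, an exonuclease that degrades single-stranded RNA, read -0.53, -0.61 and -0.15 in knock-in and -1.37, -1.51 and -1.66 in wild type. The groups were separate, and the difference was 1.09 ± 0.19 (SE; adjusted p = 0.0072, limma; 0.108 with the slide block). Samhd1, which depletes deoxynucleotides, averaged 0.67 ± 0.43 against 0.72 ± 0.14 (SD, n = 3 each; adjusted p = 0.901, limma), with a sign that changed between settings. Adar, which edits adenosine in double-stranded RNA, averaged -0.65 ± 0.19 against -0.42 ± 0.45 (SD, n = 3 each; adjusted p = 0.538, limma). A second probe gave differences of -0.14 for Samhd1 and 0.02 for Adar, and both genes had overlapping arrays.

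Of the 5 ubiquitin and ADP-ribose enzymes, 4 rose. Parp14, a mono-ADP-ribosyltransferase, read -0.79, -0.90 and -0.87 in knock-in and -2.86, -3.28 and -3.35 in wild type. The knock-in arrays were almost level with each other, and the difference was 2.31 ± 0.18 (SE; adjusted p = 0.000382, limma; 0.00824 with the slide block). Trim21, a cytosolic antibody receptor and ubiquitin ligase, read -0.72, -0.55 and -0.51 against -1.91, -1.49 and -1.63. Its groups were separate, and the difference was 1.08 ± 0.17 (SE; adjusted p = 0.00559, limma; 0.101 with the slide block). Trim25, the ubiquitin ligase that acts on RIG-I, averaged 1.13 ± 0.30 against 0.18 ± 0.21 (SD, n = 3 each; adjusted p = 0.018, limma). Parp9 averaged -0.67 ± 0.19 against -1.56 ± 0.30 (SD, n = 3 each; adjusted p = 0.0208, limma). Both were lost with the slide block (adjusted p = 0.181 and 0.201) and without single arrays: Trim25 without knock-in array 2 or 4 or wild type array 2 (0.05 to 0.0776), Parp9 without knock-in array 2 or 4 or wild type array 1 or 2 (0.0546 to 0.0934). Dtx3l, the ubiquitin ligase that pairs with PARP9, read -2.67, -0.87 and -1.41 against -2.82, -3.01 and -2.31. Knock-in array 1 of Dtx3l fell within the wild type range, and the difference of 1.06 did not pass the test (adjusted p = 0.128, limma); without that array it was 1.57 (adjusted p = 0.0226).

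Of the other induced proteins, Ifi27, Xaf1 and Rtp4 rose. Ifi27, a small hydrophobic membrane protein, read 4.47, 4.64 and 4.45 in knock-in and 3.34, 3.34 and 3.06 in wild type. The arrays of each group lay close together, and the difference was 1.27 ± 0.16 (SE; adjusted p = 0.00219, limma; 0.0354 with the slide block). Xaf1, a pro-apoptotic binding partner of XIAP, read -1.27, -1.15 and -1.40 against -2.88, -2.73 and -2.51. Its groups were more than 1 log2 unit apart, and the difference was 1.43 ± 0.17 (SE; adjusted p = 0.00167, limma). Rtp4, a receptor-transporting protein, read -1.39, -1.62 and -2.01 against -3.74, -3.15 and -4.54, with 1 wild type array well above background. By the rule given for Ifih1, Rtp4 was at least 4.30-fold higher (fitted adjusted p = 0.00683, limma; 0.0622 with the slide block). Ifi35 averaged -2.17 ± 0.33 against -2.23 ± 0.06 (SD, n = 3 each; adjusted p = 0.852, limma), with overlapping arrays.

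The other 10 genes of the list gave no test. No probe matched Mx1 or Mx2, the antiviral dynamin-like GTPases. The probes of 8 genes failed the filter: Eif2ak2, the kinase PKR; Irf7, the factor that amplifies interferon production; Oas2 and Oas3, synthetases; Gbp7, a guanylate-binding protein; Rsad2, or viperin; Cmpk2, a nucleotide kinase; and Ifi44. Rsad2 and Ifi44 were not well above background on any array, and Gbp7 and Cmpk2 were so on 1 knock-in array each. Oas2 was above background on 1 wild type array. Over all 40 genes with a probe, 36 had a higher mean in knock-in, or 90%, at a median difference of 1.08. That share is read against 60.7% of all 20659 genes with a probe, at a median of 0.21, since dim probes as a whole read higher on the knock-in arrays.

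The spread between arrays was also compared with that of genes in general. The median SD of a member was 0.30 over knock-in arrays and 0.20 over wild type arrays, against 0.21 and 0.25 for all genes tested. Knock-in array 1 was the highest of its group for 14 members and the lowest for 13, or 43.8% and 40.6%, against 38.4% and 43.5% of all genes tested. It was highest for Ifitm1, Ifitm3, Ifit3, Gbp2, Oas1a and Rtp4, and lowest for Irf9, Irf1, Stat2, Ifit1, Dtx3l and Trim25. Knock-in array 4 was the lowest for 16 members, or 50%, against 38.7% of all genes, and the highest for 7, or 21.9%, against 37.5%.

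The genes upstream of the response were read from a list of their own. Of a list of 42 ligands, receptors, kinases, inhibitors and nucleic acid sensors, 24 were tested, of which 2 rose and 2 fell, 8.33% each, against 13.3% and 12.6% of all genes, at a median difference of 0.00. None of the 4 tested interferon ligands passed the test: Ifna1 differed by -0.28, Ifnl3 by -0.10 and Ifna11 by 1.11. Ifna2 was well above background on no knock-in array, so no size is given for its difference (fitted adjusted p = 0.0933, limma). The Ifna genes are close copies of one another. The probes of Ifnb1 and Ifng, which encode interferon beta and interferon gamma, failed the filter. Of the receptor chains, Ifnar2, the signalling chain of the type I receptor, rose by 0.75 (adjusted p = 0.0477, limma), while Ifnar1 differed by -0.09, Ifngr1 by 0.39, Ifngr2 by 0.32 and Il10rb by 0.62 without passing. Jak1 differed by 0.21 and Jak2 by -0.43, also without passing.

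Of the nucleic acid sensing genes, Irf3, the factor that induces interferon beta, rose by 0.56 (adjusted p = 0.028, limma). Trex1, the exonuclease that clears cytosolic DNA, read 0.51, 0.61 and 0.80 in knock-in and 1.98, 2.04 and 1.46 in wild type. All its knock-in arrays were below all wild type arrays, and its level fell by 1.18 (adjusted p = 0.00758, limma). Tlr7, the endosomal receptor for single-stranded RNA, read -0.44, -0.56 and -1.28 against 1.07, 1.22 and -0.11. It fell by 1.48 (adjusted p = 0.0342, limma), and wild type array 3 stood near the knock-in arrays. With slide as a random block none of the upstream genes was called, where 2.82% of all genes rose and 2.01% fell. With scan day as a block 5 of the 24 tested rose and 6 fell, near the 19.5% and 23.9% of all genes in that fit.

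A second list held interferon-induced genes outside the set. Of 68 such genes, 41 were tested, of which 13 rose, or 31.7%, and 3 fell, or 7.32%, at a median difference of 0.41. Of all genes tested, 13.3% rose and 12.6% fell. Phf11d read -0.06, 0.34 and 0.11 in knock-in and -2.40, -2.24 and -2.39 in wild type, a difference of 2.47 (adjusted p = 0.00025, limma). Apol9b differed by 2.23, Shisa5 by 1.87 and Lgals3bp, a secreted glycoprotein, by 1.79, each with separate groups. A second probe of Shisa5 gave a difference of 0.32, and a second probe of Lgals3bp gave 1.06. Tdrd7 fell by 1.35, Mndal fell by 1.20 and Trafd1 fell by 0.89. Tdrd7 encodes a Tudor-domain protein of lens RNA granules, and it read 5.33, 5.70 and 5.76 in knock-in and 7.04, 7.04 and 6.74 in wild type. With slide as a random block, 5 of the 41 rose and none fell, against 2.82% and 2.01% of all genes. The 13 that rose and these 5 include Ifi204, which passed the filter only through knock-in, where it was high. No wild type array was well above background for Ifi204, and its calls support nothing about the list. With scan day as a block 16 rose and 6 fell, against 19.5% and 23.9% of all genes.

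**Figure D4:**
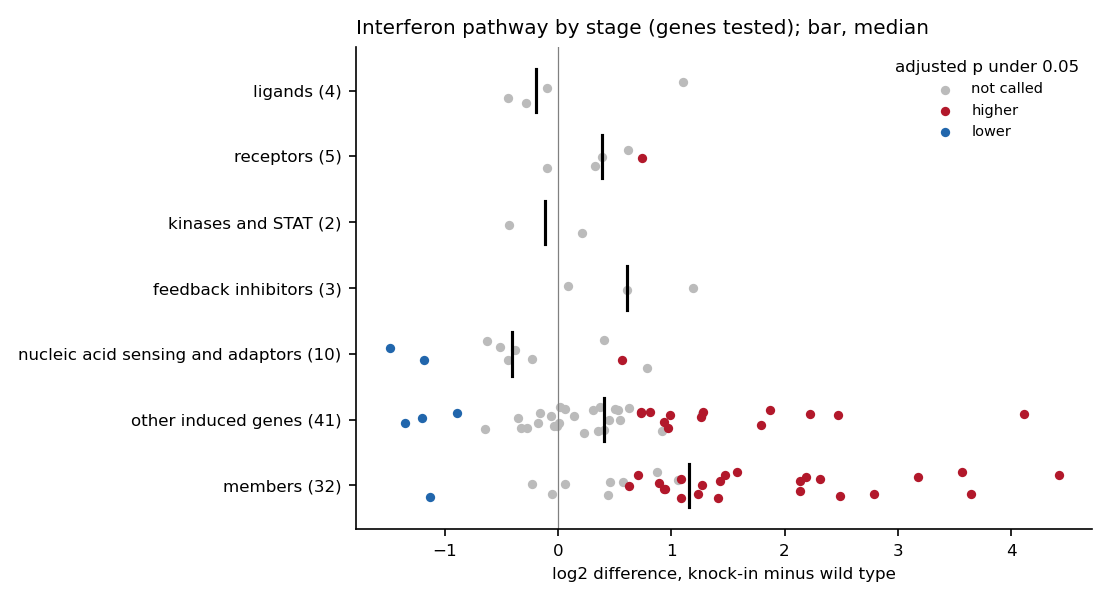
Log2 difference, knock-in minus wild type, of each tested gene by stage of the interferon pathway, coloured by its call at an adjusted p under 0.05; the bar is the stage's median. The 24 upstream genes have a median of 0.00, the 41 other induced genes 0.41 and the 32 members 1.16.

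Leukocytes express many of these genes, and leukocyte markers were read on the same arrays. Of 41 markers, 39 had a probe and 21 were tested. Of these, 5 rose, or 23.8%, and 2 fell, or 9.52%, against 13.3% and 12.6% of all genes tested. The 5 were Lyz1, a lysozyme, by 4.03, and C1qc, a complement subunit of macrophages, Coro1a, Cd52 and Tyrobp, at least 15.3-fold, 3.80-fold, 4.49-fold and 5.11-fold higher; wild type arrays were above background for C1qc on 1 array and for the other three on none. Itgam, the integrin CD11b, fell by 1.65 on the probe that stood for it, while its other probes differed by 0.05 and -0.65. Adgre1, the macrophage antigen F4/80, differed by -0.39 on the probe that stood for it and by 3.28 on its second probe, which no wild type array showed above background. C1qb, a subunit of the same complement protein as C1qc, differed by -0.86 without being called. Lyz2, the other lysozyme gene listed, was well above background on no array. Cd8a, of cytotoxic T cells, was called lower and was well above background on no knock-in array. Summed over the 9 pan-leukocyte markers, the linear signal in units of the 75th percentile came to 3.26, 1.62 and 1.33 in knock-in and to 1.07, 1.43 and 0.655 in wild type, in the array order above. The groups overlapped, at knock-in array 4 and wild type array 2. Fcer1g made up 0.669, 0.927 and 0.432 of the wild type sums and was the only tested marker of these with a negative difference, -0.39. Left out after its values were seen, it gave sums over the other 8 markers of 2.53, 1.19 and 0.947 in knock-in. In wild type they were 0.400, 0.499 and 0.223, and the groups were separate. Among the 8, Coro1a, Lcp1, Cd52 and Tyrobp passed the filter only through knock-in, where they were high. Of the 9 markers, 5 or 6 were well above background on knock-in arrays against 2 or 3 on wild type arrays. Ptprc, the defining pan-leukocyte gene CD45, was above background on 1 knock-in array and on 2 of the wild type arrays. The 13 macrophage and monocyte markers with a probe summed to 27.6, 13.5 and 15.8 in knock-in and to 38.6, 41.6 and 13.1 in wild type. For the 11 lymphocyte markers the sums were 9.62, 7.82 and 7.22 against 19.1, 16.7 and 6.84. The 6 dendritic and neutrophil markers gave 155, 131 and 151 against 194, 204 and 83.3. Each of these sums overlapped between the groups. The sum over all leukocyte markers was 154 to 196 in knock-in and 104 to 264 in wild type, and most of it came from the Siglech probe. Without it, the other 38 markers summed to 23.3 to 40.9 in knock-in and 20.8 to 60.2 in wild type. The part of leukocytes in the rise of the members was not tested.

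Retinal markers stood apart on 1 array. The 5 retinal markers summed to 0.774 and 0.868 on knock-in arrays 1 and 2, to 17.0 on knock-in array 4 and to 0.224 to 0.295 on wild type arrays, and all 5 were well above background on knock-in array 4. Gnat1, the only one tested, was not called (adjusted p = 0.059, limma). Without that array, 20 members rose and the median difference was 1.19, against 23 and 1.16 with it. The calls for Ddx58, Ifit2, Parp9 and Trim25 were lost. The count is not read as a result, since the number of all genes called also changed when 1 array was left out. Whether the retinal signal bears on the members was not tested. The lens fibre markers summed to 961 to 1038 in knock-in and in wild type to 2705, 3236 and 890 by array. Of the 8 tested, 4 fell, or 50%, and none rose, against 12.6% and 13.3% of all genes tested.

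**Figure D5:**
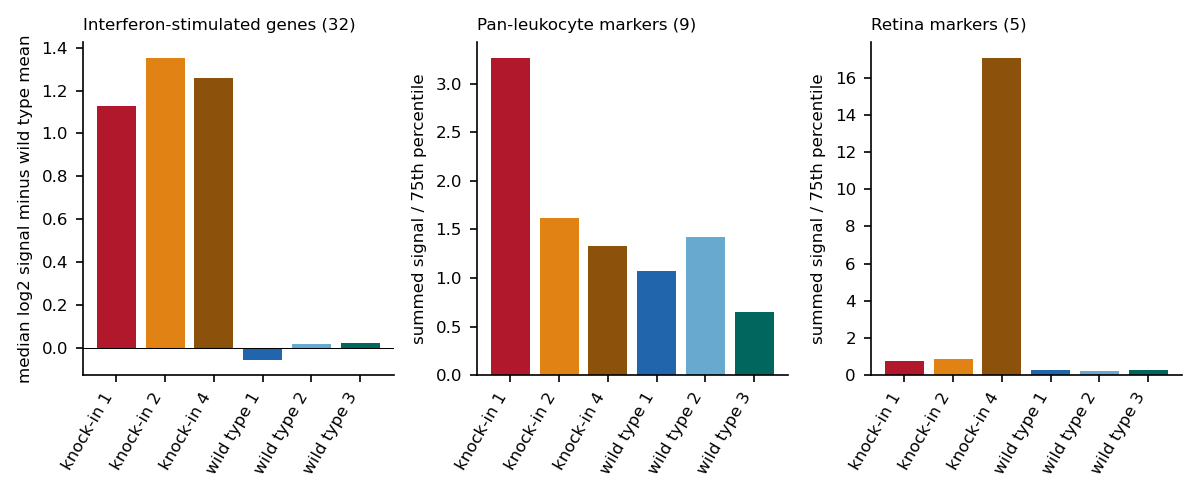
Median log2 signal of the 32 tested members minus the wild type mean, and summed linear signal of the 9 pan-leukocyte and the 5 retinal markers, on each array. The sums are in units of the array's 75th percentile. Retinal markers stand out on knock-in array 4 at 17.0, and pan-leukocyte markers, Fcer1g included, overlap between groups, from 1.33 to 3.26 in knock-in and 0.655 to 1.43 in wild type.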

How the data were processed

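Lens RNA of 3 knock-in and 3 wild type samples was hybridised to 1 single-colour array each, per the labels' protocols. The deposited values are scanner intensities: the processed signal, from which the software had subtracted background (Feature Extraction, version 11.0.1.1 by the file headers; the submitters' processing notes name Agilent Feature Extraction 9.1), with a median spot and background signal. The probe design refers to mm9 per the file headers, so no probe coordinates are given.

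From the deposited intensities, the processed signal was put on a log2 scale and each array's 75th percentile over 43020 non-control spots subtracted. Outlier spots were dropped before averaging the spots of each probe. A probe was well above background if at least 50% of its spots were, and was kept if so on all arrays of 1 group (21076 of 39429 probes). RefSeq accessions named 27234 probes (20659 symbols, GRCm38.p6). The probe with the highest mean stood for a gene. All genes were fitted together with limma 3.58.1 in R 4.3.3, with 4 residual degrees of freedom. The procedure was tested on simulated data.

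The members and lists were chosen with earlier results of these data known, so no list was given a test. Every member was named; values on every array were given for called members that differed by at least 1, those called lower and those near the threshold. Of the other lists, up to 6 genes with the smallest p, all that fell, and all tested ligands and receptors were named; other genes named were chosen after their values were seen. Same-numbered arrays of both groups deviated from their group means with correlations of 0.17 (number 1) and -0.21 (number 2), so the numbers were not taken as pairs. Values of 1 listed upstream gene are not reported here.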

Additional observations from a re-analysis of the deposited data

How the results depend on the processing

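The 23 members that rose kept a positive difference in each of the 16 alternatives that tested them. For Ifih1, Oas1a, Oasl1, Gbp3, Ifitm1 and Rtp4 these were 15, since the fit limited to genes measured on all 6 arrays left them out. Of the 24 called members, 4 (Oasl2, Ifitm3, Usp18 and Ifi27) were called under all 16. Scan day as a block and leaving out wild type array 3 were not separate checks, since that array alone was scanned on its day. Both gave 26 member calls and 5556 genes called. With normexp (offset 50, planned on mean signals and run on median signals), 9 members rose, 0 fell, the median was 0.76, 6 other induced genes rose and 1431 genes were called in all. With no filter 0 members fell and 2003 genes were called; with genes above background on all arrays the members' median was 0.95. With slide as a random block (consensus correlation 0.564), 11 members rose and 0 fell, 5 other induced genes rose and 0 fell, and 618 genes were called. With scan day as a block, 6 other induced genes fell and 5556 genes were called. With the replicate block, 5 other induced genes fell and 5433 genes were called, and 23 of the 24 member calls remained (Ddx58 lost, Dhx58 gained). Wild type array 3 and knock-in array 4 had no partner of the same number, so arrays 1 and 2 of each group alone set those differences. The replicate block was therefore not separate from leaving out wild type array 3 either. Centring on the median left 1143 higher and 1655 lower calls, against 1697 and 1615, and 20 members rose. Leaving out 1 array gave 17 to 25 members higher and 0 to 1 lower, 7 to 16 other induced genes higher and 2 to 6 lower, and 1526 to 5556 genes called (fewest without knock-in array 2, most without wild type array 3); Ifit2 was not called without knock-in array 2 or 4 or wild type array 1. Differences that changed sign were small: Samhd1 was 0.024 with normexp, 0.030 with scan day as a block and -0.20 to 0.20 with 1 array left out, and Ifi35 was -0.11 to 0.21 with 1 array left out, lowest without knock-in array 1. The cause of these changes was not tested. Signal over background limits the 6 members that passed the filter only through knock-in and the 8 that failed it.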
